A study of Homo sapiens with 12 samples.

Results

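The genes described are the noradrenergic identity factors and enzymes of SH-SY5Y, an established human neuroblastoma line widely used as a model of sympathetic neurons. They are 6 transcription factors (PHOX2A, HAND2, GATA2, GATA3, ISL1 and TBX2) and 2 enzymes of noradrenaline synthesis (DBH and TH), taken from the count table by Ensembl identifier. The rule used no measured value, but the set was chosen with earlier results of these data known. These 8 genes are among 60710 in the table. All 7 but TH passed the filter on low counts, out of 16366 genes that were tested. Cells had been exposed for 5 h to HPPE, to zinc protoporphyrin or to tin protoporphyrin, each at 5 µM and added in DMSO, and control wells received DMSO alone. Each of the 4 groups holds 3 libraries of the same line, so the solvent is common to all of them. The metal protoporphyrins carry the porphyrin ring of heme with zinc or tin in the place of iron, and the labels do not spell out HPPE. The series title places the compounds among activators of NRF2, a regulator of antioxidant genes.

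Noradrenergic neurons are specified by a small circuit of transcription factors that sustain each other's transcription and that of the genes for the transmitter. PHOX2A is a paired-like homeodomain factor, HAND2 a basic helix-loop-helix factor, GATA2 and GATA3 zinc finger factors, ISL1 a LIM homeodomain factor and TBX2 a T-box repressor. TH makes L-DOPA from tyrosine, the rate-limiting step of catecholamine synthesis, and DBH turns dopamine into noradrenaline inside secretory vesicles. In neuroblastoma the same circuit marks the adrenergic cell state, as opposed to a mesenchymal state that resembles neural crest.

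All positions are on GRCh38 with GENCODE 29 models. PHOX2A (ENSG00000165462.5) lies at chr11:72239077-72245664 on the minus strand, HAND2 (ENSG00000164107.9) at chr4:173524969-173530229 on the minus strand, and GATA2 (ENSG00000179348.12) at chr3:128479427-128493185 on the minus strand. GATA3 (ENSG00000107485.18) lies at chr10:8045378-8075203, ISL1 (ENSG00000016082.15) at chr5:51383391-51394738 and TBX2 (ENSG00000121068.14) at chr17:61399896-61409466, all on the plus strand. DBH (ENSG00000123454.12) lies at chr9:133635348-133659344 on the plus strand and TH (ENSG00000180176.15) at chr11:2163929-2171877 on the minus strand. All 8 are protein-coding, and the counts are sums over a gene's exons rather than values of single transcripts.

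The promoters of 6 of the 8 genes were matched by symbol in a RefSeq table (GRCh38.p14), and TBX2 and TH have no entry there. The 250 bases before the RefSeq start were searched on both strands for GATAA (a core that GATA factors bind), ATTA (a core that homeodomain factors bind), the E-box CANNTG (bound by basic helix-loop-helix factors such as HAND2) and TGACGTCA (the cyclic AMP element). HAND2 and ISL1, each with 1 RefSeq start, are shown because both hold the GATA core and the homeodomain core, the motifs of the other factors of the circuit. The HAND2 stretch is chr4:173530230-173530479 on the minus strand, and the ISL1 stretch is chr5:51383198-51383390 on the plus strand, which stops where GENCODE 29 starts the ISL1 transcript. Both are written 5′ to 3′ in the direction of the gene, with capitals for GATAA and ATTA on either strand, which overlap in places.
HAND2: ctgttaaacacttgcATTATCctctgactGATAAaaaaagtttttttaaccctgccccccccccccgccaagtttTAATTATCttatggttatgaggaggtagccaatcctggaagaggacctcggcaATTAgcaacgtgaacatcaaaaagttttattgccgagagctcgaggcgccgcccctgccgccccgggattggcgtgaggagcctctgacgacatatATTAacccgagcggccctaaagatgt
ISL1: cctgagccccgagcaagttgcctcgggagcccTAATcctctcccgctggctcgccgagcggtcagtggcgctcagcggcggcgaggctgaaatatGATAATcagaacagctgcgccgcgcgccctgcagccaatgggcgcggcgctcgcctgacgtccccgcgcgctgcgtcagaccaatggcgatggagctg

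In the 250 bases before its start, HAND2 held 3 matches to GATAA and 5 to ATTA, and ISL1 held 2 matches to each, of which 1 GATAA lies beyond the stretch shown. GATA3 has 6 windows in the table, of which 1 held both cores (1 GATAA and 2 ATTA), 1 held a single ATTA and the others held neither. GATA2 has 2 windows, and neither core was found in them. DBH held 0 matches to GATAA, 3 to ATTA and 3 to CANNTG, in a window that GENCODE 29 places inside the 5′ UTR of DBH. CANNTG also had 1 match in HAND2, 1 in ISL1, 3 in 1 of the GATA2 windows, and 2 and 1 in 2 of the GATA3 windows. PHOX2A held 0 matches to any of the 4 motifs. Such short motifs are common: of 35116 RefSeq promoter windows of 250 bases, 20.4% held GATAA, 47.4% ATTA, 61.8% CANNTG and 1.65% TGACGTCA. TGACGTCA was not found in the windows of the 6 genes. A match describes the letters only.

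Total counts per library ran from 1337028 in the first zinc protoporphyrin library to 9145399 in the second tin protoporphyrin library. The 3 shallowest libraries were zinc protoporphyrin 1, DMSO control 3 with 1514595 counts and HPPE 3 with 3141853. Levels are CPM, that is counts per 1e+06 counts of the library after TMM scaling. A count of 3, taken as the limit that a count of 0 allows, equals 0.337 to 2.26 CPM. HPPE libraries 2 and 3 differed by little more than sampling noise (chi-square per degree of freedom of 1.099 over 16215 genes, against 1.45 to 15.05 for other pairs within a group), and summing them is among the alternatives tried. The labels do not say whether libraries of a group came from separate cultures, so p-values measure only the spread between these libraries. Libraries within groups were spread along 1 main axis that held 52.7% of the within-group variance, and its values are given beside the genes they move with.

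Per kilobase of exon, the 7 detected genes of the circuit were strongly expressed in the control wells. HAND2 stood at 231 ± 20.3 CPM per kb (SD, n = 3), rank 60 among 16191 tested genes with a known length. GATA2 followed at 200.4 ± 6.17 and GATA3 at 194 ± 10.3, and these neighbours differed by less than their SD. PHOX2A stood at 146 ± 39.1 CPM per kb, DBH at 91.2 ± 2.61, ISL1 at 64.3 ± 2.87 and TBX2 at 34.3 ± 3.91, rank 897. The order was the same when the longest transcript of each gene gave the length. TH is the exception, at 0.0136 CPM per kb in the controls.

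**Figure D1:**
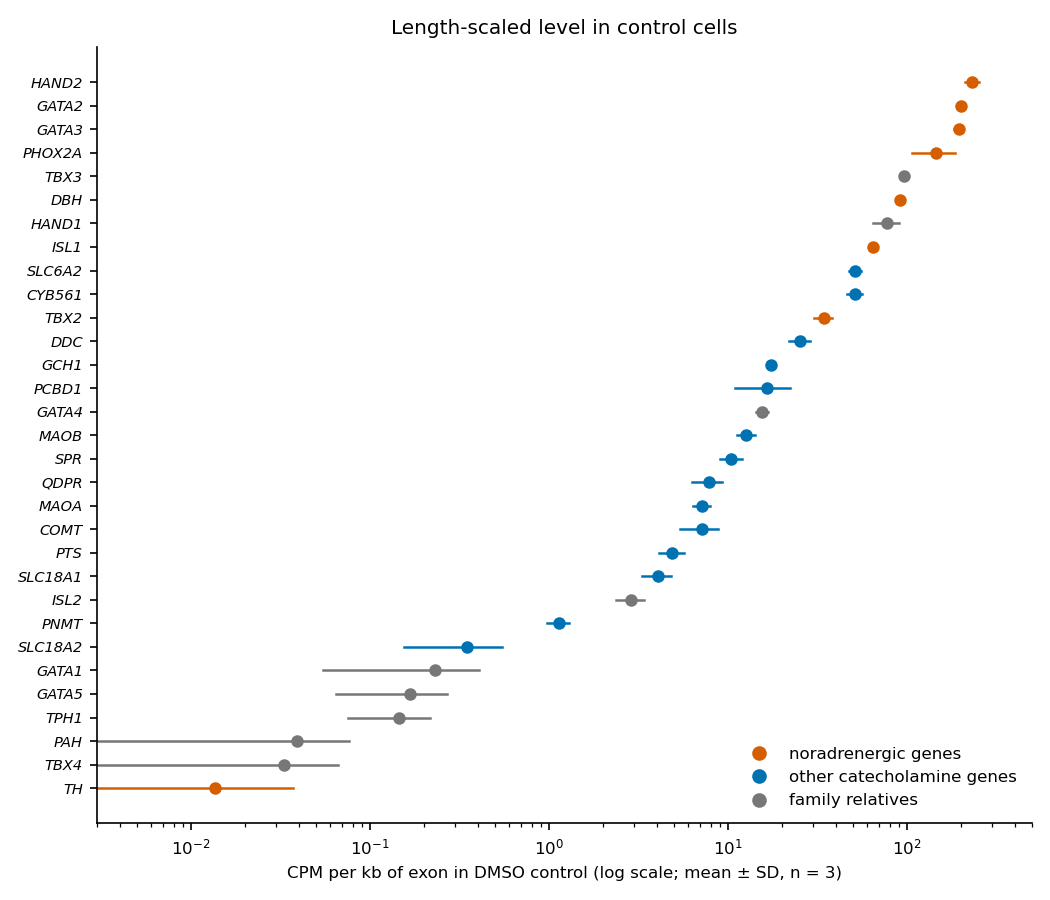
Level in the DMSO control of the noradrenergic genes, of their family relatives and of catecholamine genes, in CPM per kb of exon on a log axis, as mean and SD of 3 libraries. HAND2, GATA2, GATA3 and PHOX2A lie above 100, and TH lies at 0.0136; GATA6, TBX5, MOXD1 and TPH2, at 0 in the controls, are not drawn, and whiskers that reach 0 run to the left edge.

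Among relatives of the same families, TBX3, a T-box repressor close to TBX2, reached 96.6 CPM per kb in the controls and thus exceeded TBX2. HAND1, the paralog of HAND2, stood at 77.2 CPM per kb, GATA4 at 15.5 and ISL2 at 2.87. These 4 of 13 listed relatives passed the filter on low counts. None of the 4 passed the test (edgeR, adjusted p) in any comparison with the control. The unadjusted p was under 0.05 for 1 of 4 with HPPE, 1 of 4 with zinc protoporphyrin and 0 of 4 with tin protoporphyrin, and DESeq2 called 0. TBX3 was 575 ± 8.71 CPM in the control and 653 ± 25.7 with HPPE, a log2 difference of 0.18 ± 0.074 (edgeR, adjusted p = 0.206). HAND1 was 134 ± 22.1 CPM in the control and 106 ± 8.15 with zinc protoporphyrin, a log2 difference of -0.30 ± 0.13 (edgeR, adjusted p = 0.231).

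No noradrenergic gene passed the test in any of the 6 comparisons between groups. With edgeR's quasi-likelihood test and an adjusted p under 0.05, 0 of 7 were called with HPPE against the control, where 4.04% of all tested genes were called. The count was 0 of 7 with zinc protoporphyrin against a background of 2.25%, and 0 of 7 with tin protoporphyrin against 2.28%. Between compounds it was 0 of 7 for HPPE against zinc protoporphyrin (12.7% of all genes), 0 of 7 for HPPE against tin protoporphyrin (1.45%) and 0 of 7 for zinc against tin protoporphyrin (0.00611%). Beside these shares, 0 of 7 is near the background and is not a result about these genes. The unadjusted p was under 0.05 in 4 of 42 tests, with 1 of 7 genes in each of the 3 comparisons with the control (17.7%, 18.6% and 14.7% of all genes), 1 of 7 for HPPE against zinc protoporphyrin (32.2%) and 0 of 7 in the others. DESeq2 called 1 gene, HAND2 with zinc protoporphyrin, and 0 in the other 5 comparisons. In the test for any difference among the 4 groups, which called 7.18% of all genes, 0 of 7 passed, and the lowest adjusted p-values were those of HAND2 at 0.106 and TBX2 at 0.165.

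The intervals say how large a difference the data leave room for. Of the 42 intervals of 95% of the fold change, 40 lay wholly within 1.5-fold either way and all 42 within 2-fold. The lowest bound was a fold of 0.61, for PHOX2A with zinc protoporphyrin against the control, and the highest was 1.49, for PHOX2A with HPPE against zinc protoporphyrin. A missed threshold does not show that levels were alike, and these bounds are the statement the depth allows. The median log2 difference of the 7 genes was -0.062 with HPPE, -0.080 with zinc protoporphyrin and -0.066 with tin protoporphyrin, beside 0.016, -0.0038 and 0.0092 over all tested genes. The 3 comparisons share the control libraries.

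**Figure D2:**
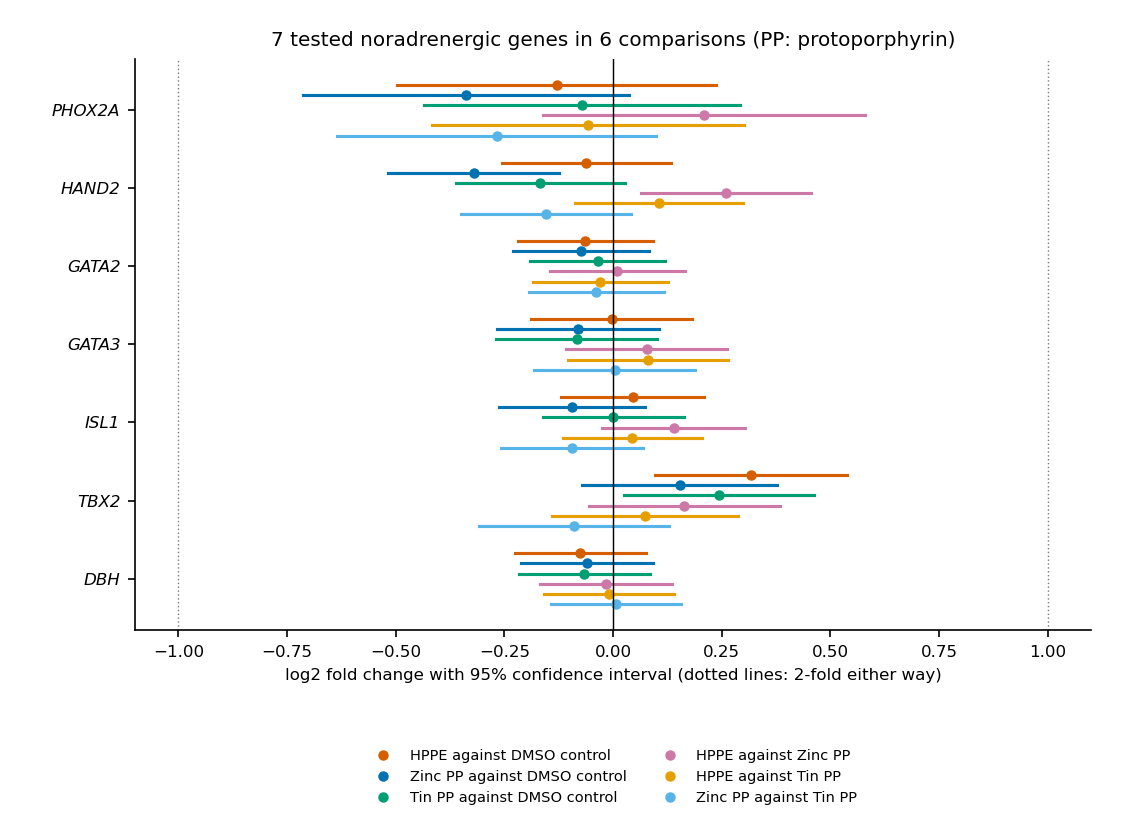
Log2 fold change of the 7 tested noradrenergic genes in the 6 comparisons between groups, each point with its 95% interval, from the fit over all 12 libraries. All intervals lie within 2-fold, and 4 of 42 leave out 0.

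PHOX2A varied most between libraries of 1 group. It was measured at 193, 254 and 332 CPM in the control, 215, 239.5 and 246 with HPPE, 218, 215 and 176 with zinc protoporphyrin, and 302, 182 and 243 with tin protoporphyrin. The control and tin protoporphyrin groups each span the whole range of the HPPE group, and the zinc protoporphyrin libraries overlap all others. Group means were 259.9 ± 69.7, 233 ± 16.1, 203 ± 23.3 and 243 ± 60.0 CPM (SD, n = 3), in the same order of groups. The log2 difference from the control was -0.13 ± 0.17 with HPPE, -0.34 ± 0.18 with zinc protoporphyrin and -0.071 ± 0.17 with tin protoporphyrin (SE; edgeR, adjusted p of 0.744, 0.313 and 0.899). The coefficient of variation over the 12 libraries was 19.7%, beside a median of 9.64% over the 2492 tested genes with a mean of at least 100 CPM.

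The spread of PHOX2A followed the main axis of variation between libraries. DMSO control 3 and tin protoporphyrin 1, the highest for PHOX2A, scored 1.88 and 1.195 on that axis, the highest scores of all. Tin protoporphyrin 2 and DMSO control 1, at 182 and 193 CPM, scored -1.37 and -1.31, the lowest. With the axis as a covariate, PHOX2A was called lower with zinc protoporphyrin than in the control, at a log2 difference of -0.33 (edgeR, adjusted p = 4.62e-06). PHOX2A was also called in zinc protoporphyrin against HPPE and against tin protoporphyrin. That fit called 25.4%, 34.8% and 14.4% of all tested genes in these comparisons, in that order. No other alternative called PHOX2A in them. The axis was estimated from the same counts, so these p-values are not independent of it, and its part in the spread was not tested.

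**Figure D3:**
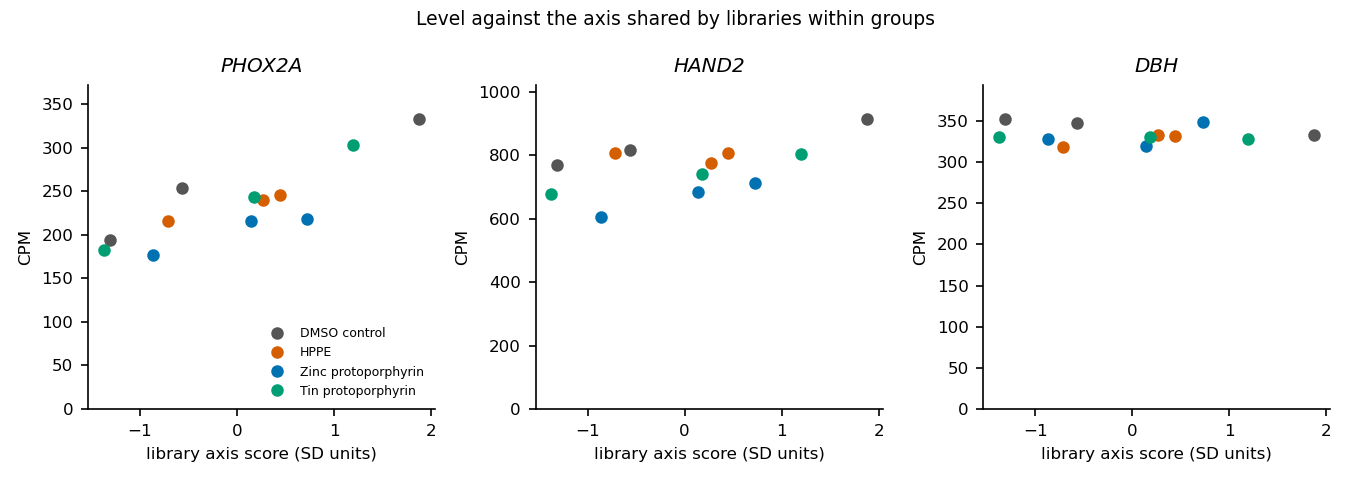
Level in CPM of PHOX2A, HAND2 and DBH in each of the 12 libraries (points, coloured by group) against the library's score on the main within-group axis, in SD units. For PHOX2A, DMSO control 3 and tin protoporphyrin 1 lie at the upper right and DMSO control 1 and tin protoporphyrin 2 at the lower left, while DBH lies between 318 and 352 CPM over the whole axis.

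HAND2 was the gene closest to a call. The control libraries held 769.7, 817 and 913 CPM, those with HPPE 808, 774 and 808, those with zinc protoporphyrin 712, 684 and 605, and those with tin protoporphyrin 803, 678 and 740.3. All 3 zinc protoporphyrin libraries lay under all control and all HPPE libraries, while those with tin protoporphyrin overlapped every other group. Means were 833 ± 73.1 in the control, 797 ± 19.3 with HPPE, 667 ± 55.4 with zinc and 740.4 ± 62.1 CPM with tin protoporphyrin. The log2 difference of zinc protoporphyrin from the control was -0.32 ± 0.093 (95% interval -0.52 to -0.12), with an unadjusted p of 0.0031 and an adjusted p of 0.0793 in edgeR. HPPE against zinc protoporphyrin gave 0.26 ± 0.093 (interval 0.064 to 0.46; adjusted p = 0.0691), the lowest adjusted p of the 42 tests. With HPPE the difference from the control was -0.062 ± 0.092 and with tin protoporphyrin -0.17 ± 0.092 (adjusted p of 0.778 and 0.425).

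The call on HAND2 turned on the processing. DESeq2 gave an adjusted p of 0.0368 for zinc protoporphyrin against the control, and edgeR called it without the filter on low counts, with the trend over gene length removed, with the library axis as a covariate and without the second tin protoporphyrin library. These 5 of 24 alternatives were the only ones to call it, and without zinc protoporphyrin 3 the adjusted p was 0.372 in edgeR. For HPPE against zinc protoporphyrin, 5 of 24 alternatives called HAND2, and without the same library that adjusted p was 0.326. The fold of zinc protoporphyrin against the control moved little, between -0.38 and -0.26 on the log2 scale when single libraries were left out. Of the exons of HAND2, 867 bases (24.1%) are also exon of HAND2-AS1 on the opposite strand. Whether strand was used in counting is not given in the sources used here, so reads of these genes may not be told apart. HAND2-AS1 stood at 731 ± 32.4 CPM in the control and at 683 ± 9.37, 626 ± 17.8 and 649.96 ± 11.6 CPM with HPPE, zinc and tin protoporphyrin. All its compound libraries lay under all its control libraries, and the log2 differences were -0.10 ± 0.073, -0.22 ± 0.074 and -0.17 ± 0.073 (edgeR, adjusted p of 0.506, 0.118 and 0.283).

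GATA2 had the lowest coefficient of variation of the 7, at 3.05%. Its 12 libraries ran from 820 to 925 CPM, a highest-over-lowest ratio of 1.13, against 1.11 for DBH. Control libraries held 876, 879.7 and 925 CPM, HPPE libraries 852, 858 and 852, zinc protoporphyrin libraries 859, 867 and 819.7, and tin protoporphyrin libraries 898, 849.7 and 867. All 3 libraries with HPPE and all 3 with zinc protoporphyrin lay under all controls, by margins small beside the level. The log2 differences from the control were -0.064 ± 0.074, -0.074 ± 0.074 and -0.035 ± 0.073 (edgeR, adjusted p of 0.691, 0.624 and 0.885).

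GATA3, the partner factor of GATA2 in this circuit, stood at 705, 664 and 634 CPM in the control. It stood at 681, 646 and 675 CPM with HPPE, at 675, 677 and 549.8 with zinc protoporphyrin and at 637, 628 and 628 with tin protoporphyrin. The third zinc protoporphyrin library was the lowest, and that group overlapped all others. The HPPE libraries all lay above the tin protoporphyrin libraries, at a log2 difference of 0.081 ± 0.087. From the control GATA3 differed by -0.0029 ± 0.088, -0.080 ± 0.088 and -0.084 ± 0.088 (edgeR, adjusted p of 0.993, 0.658 and 0.724).

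ISL1 held 179, 182 and 195 CPM in the control libraries, 185, 202 and 183 with HPPE, 169, 185 and 163 with zinc protoporphyrin, and 191, 178 and 184 with tin protoporphyrin. Every pair of groups overlapped. The log2 differences from the control were 0.045 ± 0.078 with HPPE, -0.094 ± 0.079 with zinc protoporphyrin and 0.00070 ± 0.077 with tin protoporphyrin (edgeR, adjusted p of 0.813, 0.553 and 0.9997).

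TBX2 was the only one of the 7 whose mean was lowest in the control. Control libraries held 183, 207 and 230.3 CPM, HPPE libraries 244, 249.5 and 273, zinc protoporphyrin libraries 241, 238 and 208, and tin protoporphyrin libraries 272, 211 and 244. All HPPE libraries lay above all control and all zinc protoporphyrin libraries. Means were 207 ± 23.6, 256 ± 15.5, 229 ± 18.1 and 243 ± 30.4 CPM. Against the control the log2 difference was 0.32 ± 0.10 with HPPE (interval 0.096 to 0.54; unadjusted p of 0.00755, adjusted p of 0.106 in edgeR), 0.15 ± 0.11 with zinc protoporphyrin and 0.24 ± 0.10 with tin protoporphyrin (interval 0.025 to 0.46), with adjusted p-values of 0.459 and 0.283. Among the alternatives, edgeR called the HPPE difference only without DMSO control 3, without tin protoporphyrin 2, without the filter on low counts, and with the library axis as a covariate. DESeq2 did not call it.

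DBH, the enzyme that defines the noradrenergic type, stood at 352, 348 and 333 CPM in the control. It stood at 318, 333 and 331 CPM with HPPE, 349, 319 and 328 with zinc protoporphyrin and 327, 329.9 and 331 with tin protoporphyrin. The HPPE and the tin protoporphyrin libraries all lay under the controls, though narrowly: the highest were 332.7 and 330.8 CPM and the lowest control was 333.1. Means were 344 ± 9.84, 327 ± 8.01, 332 ± 15.2 and 329 ± 1.83 CPM. The log2 differences from the control were -0.076 ± 0.071, -0.060 ± 0.072 and -0.066 ± 0.071 (edgeR, adjusted p of 0.616, 0.689 and 0.733), with intervals of -0.23 to 0.075, -0.21 to 0.093 and -0.22 to 0.084. DBH overlaps DBH-AS1 over 118 bases of exon (3.12%), and DBH-AS1 stood at 7.46 ± 1.27 CPM in the control.

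TH was at or near 0 throughout. Its counts were 1, 0 and 0 in the control libraries, 2, 0 and 0 with HPPE, 0, 0 and 1 with zinc protoporphyrin and 0, 1 and 0 with tin protoporphyrin. That is 5 counts over 12 libraries, of which 8 held 0. All values lie under the limit of 3 counts, and TH was not tested in the main fit, so no fold is given. The limit is counting error only: it does not show that the gene was off. The first enzyme of noradrenaline synthesis was thus barely counted beside DBH, which held 25990 counts in all.

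**Figure D4:**
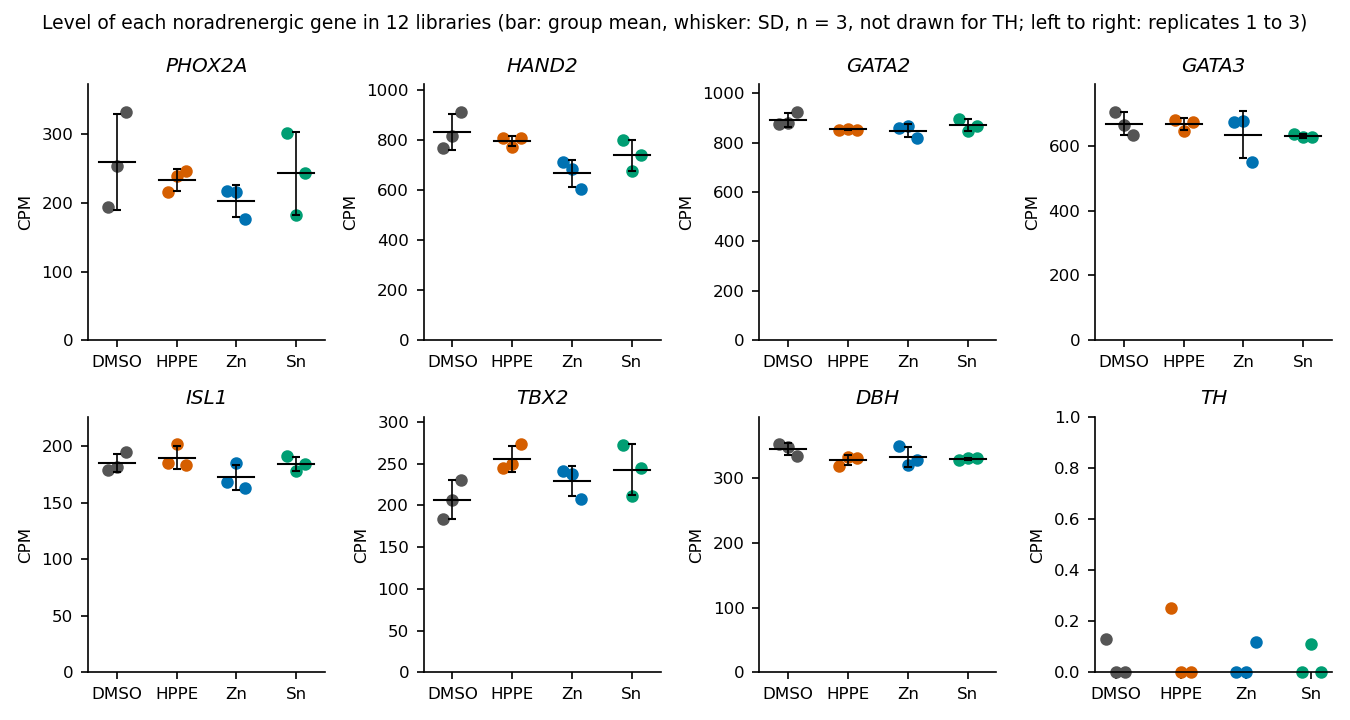
Level in CPM of each of the 8 noradrenergic genes in each of the 12 libraries, grouped by treatment, with the group mean (bar) and SD (whisker, n = 3, not drawn for TH). Of the tested genes, PHOX2A and ISL1 overlap in every pair of groups, and HAND2, GATA2, GATA3, TBX2 and DBH do not in at least 1 pair. The zinc protoporphyrin mean lies lowest for HAND2, and the HPPE mean lies highest for TBX2.

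Over the 7 tested genes, ranges of libraries did not overlap in 6 of 21 comparisons with the control. Those were 3 of 7 with HPPE (GATA2 and DBH lower, TBX2 higher), 2 of 7 with zinc protoporphyrin (HAND2 and GATA2 lower) and 1 of 7 with tin protoporphyrin (DBH lower). The share of all tested genes with no overlap was 21.4%, 22% and 17.9%. Between compounds the ranges did not overlap in 3 of 21 comparisons. These were 2 of 7 for HPPE against zinc protoporphyrin (36.7% of all genes), 1 of 7 for HPPE against tin protoporphyrin (19.9%) and 0 of 7 for zinc against tin protoporphyrin (12.9%). The control group held the highest mean for 5 of the 7 genes, and zinc protoporphyrin the lowest for 4. The third zinc protoporphyrin library was the lowest of all 12 for 5 genes. With the 4 groups ordered by mean, 3 of 21 neighbouring pairs had a gap over the larger SD. These were HPPE and zinc protoporphyrin for PHOX2A, and tin and zinc protoporphyrin for HAND2 and ISL1. Of the 7, 4 had a coefficient of variation under the median of the 2492 well expressed genes (GATA2, DBH, ISL1 and GATA3, at 3.05%, 3.28%, 5.71% and 6.16%), while HAND2, TBX2 and PHOX2A were above it at 10.7%, 11.6% and 19.7%.

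The genes most like each noradrenergic gene were found by the root-mean-square difference of centred log2 CPM over the 12 libraries among 10435 genes with a mean of at least 10 CPM. DBH was nearest to FAM120A (0.0235) and TLE4 (0.0349), and GATA2 to GRB2 (0.0283) and CCAR2 (0.0287). PHOX2A was nearest to DTX3 (0.0779) and SNU13 (0.0810), HAND2 to PLPPR2 (0.0426) and NIF3L1 (0.0490), and GATA3 to ACTR1A (0.0447) and PABPC4 (0.0497). ISL1 was nearest to UBE2G2 (0.0333) and NOP58 (0.0380), and TBX2 to CTSC (0.0617) and BID (0.0643). All distances share the same libraries and are a description.

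The other genes of the noradrenergic programme were compared with the control, and were taken from lists of regulators, catecholamine enzymes and transporters, and secretory genes of sympathetic neurons. Among 16 other sympathetic regulators, 15 were tested, and 1 was called lower with HPPE (1.47% of all genes), 1 higher with zinc protoporphyrin (1.84%) and 0 with tin protoporphyrin, where 5 had an unadjusted p under 0.05 and DESeq2 called 1. With HPPE and with zinc protoporphyrin 6 each had an unadjusted p under 0.05 in edgeR, and DESeq2 called 3 and 1. LMO4, a LIM domain cofactor, fell from 24.4 ± 1.89 to 14.9 ± 2.23 CPM with HPPE, a log2 difference of -0.69 ± 0.14 (edgeR, adjusted p = 0.00804). Without the first control library that adjusted p was 0.0837, and it also missed the threshold without the 3 shallow libraries. TFAP2B, an AP-2 factor of sympathetic progenitors, rose from 388 ± 24.8 to 505 ± 35.8 CPM with zinc protoporphyrin, a log2 difference of 0.38 ± 0.081 (edgeR, adjusted p = 0.0213). It missed the threshold in 7 of 24 alternatives, up to an adjusted p of 0.180 without zinc protoporphyrin 3. Leaving out DMSO control 2 or 3 or zinc protoporphyrin 2 also ended that call. SOX11, a SoxC factor and the highest of the list, stood at 953 ± 223, 678 ± 53.6, 1064 ± 82.7 and 845 ± 170.3 CPM in the control and with HPPE, zinc and tin protoporphyrin, and did not pass against the control in edgeR, nor did HAND1 and TBX3. With HPPE SOX11 differed from the control by -0.50 ± 0.15 (interval -0.82 to -0.18, edgeR, adjusted p = 0.0779).

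Of the genes that make, store and clear catecholamines, edgeR called the noradrenaline transporter lower with HPPE and a vesicular transporter higher with HPPE and tin protoporphyrin. All 14 were tested, and HPPE gave 2 higher (2.57% of all genes) and 1 lower (1.47%), zinc protoporphyrin 0 and tin protoporphyrin 2 higher (1.9%). DESeq2 called 1 with HPPE, the noradrenaline transporter and neither of those 2 higher genes, and called 2 with tin protoporphyrin. With zinc protoporphyrin 3 had an unadjusted p under 0.05 in edgeR, and DESeq2 called 0. SLC6A2, the noradrenaline transporter that takes the transmitter back up, stood at 292, 292 and 257 CPM in the control and fell to 216, 217 and 216 with HPPE. The difference was -0.38 ± 0.077 on the log2 scale (edgeR, adjusted p = 0.00798), and without the second control library the adjusted p was 0.0766. With zinc protoporphyrin SLC6A2 differed from the control by -0.27 and with tin protoporphyrin by -0.21 (edgeR, adjusted p of 0.0762 and 0.197). All libraries of both groups lay under all controls.

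SLC18A1, a vesicular monoamine transporter, rose from 15.9 ± 2.93 to 23.5 ± 1.57 CPM with HPPE and to 24.1 ± 1.2 CPM with tin protoporphyrin. The log2 differences were 0.54 ± 0.14 and 0.59 ± 0.14 (edgeR, adjusted p of 0.0384 and 0.0294). Without the first control library neither passed, at adjusted p-values of 0.341 and 0.261, and 11 and 6 of 24 alternatives missed the threshold. The HPPE call also ended without any 1 of the HPPE libraries, zinc protoporphyrin 2 or tin protoporphyrin 3, and the tin protoporphyrin call without tin protoporphyrin 1 or 3. MAOB, which breaks monoamines down, rose from 36.6 ± 4.24 to 47.2 ± 2.85 CPM with HPPE (0.41 ± 0.10, edgeR, adjusted p = 0.028), but not without the second control library (0.197), nor without DMSO control 1, HPPE 2 or HPPE 3. CYB561, the vesicle cytochrome that supplies electrons to DBH, rose from 273 ± 27.3 to 349 ± 21.9 CPM with tin protoporphyrin (0.36 ± 0.089, edgeR, adjusted p = 0.0403), and 13 of 24 alternatives missed the threshold, up to 0.242 without the first control library. Of the single libraries, the call on CYB561 outlasted only the loss of DMSO control 3 or tin protoporphyrin 2. DDC, which makes dopamine from L-DOPA, stood at 79.3 ± 10.9, 94.1 ± 7.39, 90.3 ± 2.7 and 94.2 ± 6.36 CPM in the control and with HPPE, zinc and tin protoporphyrin, and did not pass. Its log2 differences from the control were 0.28, 0.22 and 0.29 (edgeR, adjusted p of 0.116, 0.239 and 0.142). The 95% intervals, 0.080 to 0.48, 0.014 to 0.43 and 0.089 to 0.49, left out 0, while the libraries overlapped the controls.

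Among 14 genes of the sympathetic neuron and its secretory vesicles, 13 were tested. HPPE gave 2 higher and 2 lower (2.57% and 1.47% of all genes), tin protoporphyrin 2 higher (1.9%), and zinc protoporphyrin 0, where 5 had an unadjusted p under 0.05 and DESeq2 called 0. DESeq2 called 4 with HPPE and 1 with tin protoporphyrin. SCG2, a granin of the secretory granule, rose from 79.2 ± 15.5 to 120.2 ± 5.07 CPM with HPPE, 0.65 ± 0.11 on the log2 scale (edgeR, adjusted p = 0.00146), and passed in all 24 alternatives. With tin protoporphyrin SCG2 was 114 ± 12 CPM, 0.58 ± 0.11 (edgeR, adjusted p = 0.00535), and the adjusted p was 0.120 in a fit of the compared groups only, with the call also lost without DMSO control 1 or 2. With zinc protoporphyrin SCG2 was 99.8 ± 2.34 CPM, 0.40 ± 0.11 (edgeR, adjusted p = 0.0686), and was not called. NPY, the peptide co-transmitter, rose from 27.0 ± 11.0 to 56.6 ± 10.3 CPM with HPPE and to 51.9 ± 22.1 CPM with tin protoporphyrin (1.24 ± 0.29 and 1.13 ± 0.29, edgeR, adjusted p of 0.0213 and 0.0484). The first missed the threshold in 9 and the second in 21 of 24 alternatives. The first was lost without DMSO control 1 or 2 or HPPE 2 or 3, and the second without any single library other than tin protoporphyrin 2. GFRA2, a co-receptor for neurturin, fell from 16.7 ± 4.41 to 9.13 ± 1.71 CPM with HPPE (-0.81 ± 0.18, edgeR, adjusted p = 0.0151), and ALK, a receptor kinase mutated in neuroblastoma, fell from 167 ± 20.0 to 129 ± 4.69 CPM (-0.39 ± 0.10, adjusted p = 0.0278). Without HPPE 2 the adjusted p of GFRA2 was 0.116, and without DMSO control 1 that of ALK was 0.201. GFRA2 was also lost without DMSO control 2 or HPPE 1, and ALK without DMSO control 2 or any HPPE library. The neuronal genes STMN2, ELAVL4 and CHGA, at 1368 ± 67.8, 586 ± 43.1 and 446 ± 34.3 CPM in the control, were not called in comparisons with the control. CHGA came near, at a log2 difference of -0.36 with HPPE (interval -0.56 to -0.15, edgeR, adjusted p = 0.0521). With zinc and tin protoporphyrin CHGA differed by -0.32 and -0.13. ELAVL4 differed by 0.23, 0.19 and 0.17 with HPPE, zinc and tin protoporphyrin, and STMN2 by -0.11, 0.010 and -0.083.

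**Figure D5:**
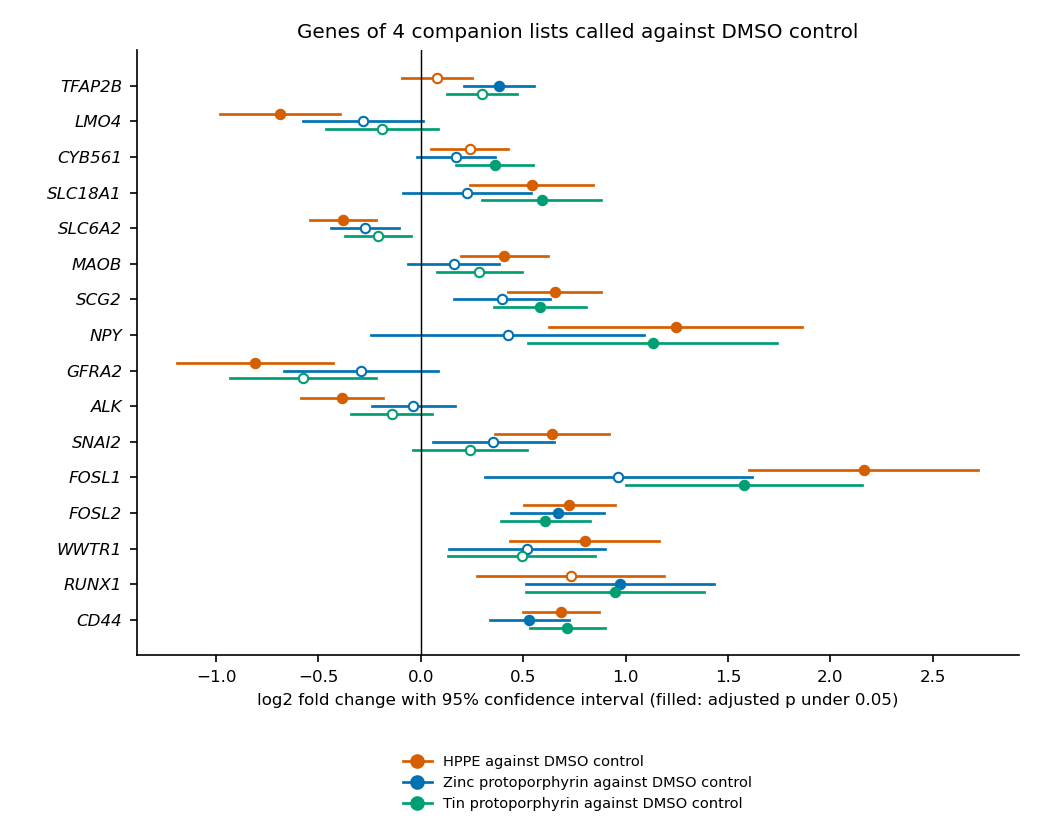
Log2 fold change against the DMSO control, with 95% intervals, of the 16 genes of the 4 lists of regulators, catecholamine, secretory and mesenchymal genes that were called with at least 1 compound; points are filled where the adjusted p was under 0.05. The intervals of SCG2 lie to the right of 0 and those of SLC6A2 to the left of 0 with every compound. SCG2 is filled with HPPE and tin protoporphyrin, and SLC6A2 with HPPE only. The intervals of NPY lie to the right of 0 with HPPE and tin protoporphyrin.

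Some genes of the mesenchymal state of neuroblastoma were called higher with the compounds, while its most abundant genes were not called. Of 14 listed, 12 were tested, and 5 were called higher with HPPE, 3 with zinc protoporphyrin and 4 with tin protoporphyrin, with 0 lower, against 2.57%, 1.84% and 1.9% of all genes called higher. The list was chosen with earlier results of these data known, so these counts are a description. FOSL1, an AP-1 subunit, rose from 2.87 ± 0.65 to 12.5 ± 0.77 CPM with HPPE (2.16 ± 0.27, edgeR, adjusted p = 8.18e-05) and to 8.33 ± 1.76 CPM with tin protoporphyrin (1.58 ± 0.27, 0.00327), the latter missing the threshold without DMSO control 1 (0.0536). FOSL2, its paralog, rose from 56.3 ± 9.20 CPM to 95.6, 92.7 and 88.6 CPM with HPPE, zinc and tin protoporphyrin (adjusted p of 0.000453, 0.00298 and 0.00298), and the last was 0.0710 in a fit of the compared groups only. RUNX1 rose from 4.58 to 9.92 CPM with zinc and 9.36 CPM with tin protoporphyrin (adjusted p of 0.0266 and 0.0194; 0.137 and 0.122 without the second control library). RUNX1 was also lost without DMSO control 1, and with zinc protoporphyrin without any library of that group or with tin protoporphyrin without its library 3. WWTR1, the YAP1 paralog TAZ, rose from 8.53 to 16.8 CPM with HPPE (edgeR, adjusted p = 0.0119, and 0.0584 without the 3 shallow libraries). The call on WWTR1 was also lost without DMSO control 1 or HPPE 2. CD44, a surface receptor on the list that is named here after its values were seen, rose from 35.3 ± 4.12 to 58.4, 52.6 and 59.8 CPM and passed in all 24 alternatives of each comparison. FN1, TWIST1 and VIM, the 3 with the highest level, stood at 486 ± 51.2, 337 ± 33.4 and 205 ± 10.3 CPM in the control. Their log2 differences with HPPE, zinc and tin protoporphyrin were 0.092, 0.035 and 0.23 for FN1, 0.028, -0.11 and 0.066 for TWIST1 and 0.26, 0.19 and 0.31 for VIM, none past the threshold. The 95% interval left out 0 for VIM with HPPE (0.064 to 0.46) and tin protoporphyrin (0.12 to 0.51). It also did for FN1 with tin protoporphyrin (0.035 to 0.43), while the other intervals included 0. All VIM libraries with each compound lay above all controls. SNAI2, on the list and also named after its values were seen, was called higher with HPPE, where its adjusted p was 0.0885 without the second control library, and the call was also lost without DMSO control 1 or HPPE 1.

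The 8 noradrenergic genes summed to 3258 to 3563 CPM in control libraries, 3302 to 3368 with HPPE, 2850.3 to 3222 with zinc protoporphyrin and 3058 to 3429.7 with tin protoporphyrin. The 14 mesenchymal genes summed to 1337 to 1431 CPM in the control, 1537 to 1556 with HPPE, 1398 to 1601 with zinc protoporphyrin and 1613 to 1623 with tin protoporphyrin. PRRX1 and RUNX2, both mesenchymal factors, held at most 3 counts in every library. In bulk RNA, fewer cells of a state and less RNA per cell cannot be told apart.

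Markers of Schwann and glial cells were low, while single markers of other transmitter types were not. The 7 Schwann and glial genes summed to 3.25 to 7.46 CPM per library, FOXD3 was at 0 in all libraries, and 0 of the 2 tested passed against the control (edgeR; 0, 0 and 1 had an unadjusted p under 0.05 with HPPE, zinc and tin protoporphyrin, and DESeq2 called 0). SOX10, 1 of the 2, was called lower with HPPE than with zinc protoporphyrin (0.69 ± 0.78 and 1.60 ± 1.23 CPM, edgeR, adjusted p = 0.0498). Its libraries overlapped there, DESeq2 called 0 of the 2, and edgeR called 12.7% of all tested genes. Of 4 cholinergic genes tested, 0 passed against the control (edgeR; unadjusted p under 0.05 for 3, 0 and 3; DESeq2 called 0). SLC18A3, the vesicular acetylcholine transporter, stood at 42.4 ± 5.99 CPM in the control, and CHAT at 1.23 ± 0.51 CPM. Between compounds HPPE differed from zinc protoporphyrin in 2 of the 4 and from tin protoporphyrin in 2 by edgeR (1 and 2 by DESeq2). Of all tested genes, edgeR called 12.7% and 1.45% in these comparisons. The metal porphyrins differed from each other in 0 by either tool (0.00611% of all genes in edgeR), with 1 at an unadjusted p under 0.05. SLC5A7, the choline transporter, stood at 1.79 ± 0.26 CPM with HPPE, 4.92 ± 1.71 with zinc and 5.10 ± 0.36 with tin protoporphyrin (edgeR, adjusted p of 0.0117 and 0.0027 for HPPE against each). SLC18A3 was lower with HPPE than with tin protoporphyrin (37.4 ± 2.44 and 55.3 ± 5.00 CPM, adjusted p = 0.0117), and ACHE was higher with HPPE than with zinc protoporphyrin (4.07 ± 0.81 and 1.71 ± 0.18 CPM, adjusted p = 0.0314). The lowest ACHE value with zinc protoporphyrin, 1.51 CPM, was under the 2.26 CPM that 3 counts equal in zinc protoporphyrin 1. Of 10 genes of other monoamine neurons, only FEV was tested, at 70.3 ± 13.1 CPM in the control, and it did not pass against the control (edgeR; unadjusted p under 0.05 with HPPE alone; DESeq2 called 0). FEV was called higher with HPPE than with zinc protoporphyrin by edgeR and DESeq2 (87.8 ± 4.93 and 63.1 ± 11.6 CPM, edgeR adjusted p = 0.0384). LMX1A, FOXA2 and NR4A2 were at 0 in every library. INSM1 and PRPH, used as markers of sympathetic neurons, held at most 1 count and at most 0.79 CPM.

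The antisense partners of the circuit were also counted. All 5 passed the filter and 0 passed the test against the control in edgeR (unadjusted p under 0.05 for 1, 2 and 1 with HPPE, zinc and tin protoporphyrin; DESeq2 called 0, 1 and 0). GATA2-AS1 stood at 28.95 ± 3.34 CPM in the control and at 38.3 ± 3.93 CPM with zinc protoporphyrin, a log2 difference of 0.44 ± 0.13 (edgeR, adjusted p = 0.0797). Between compounds GATA2-AS1 was the only one called, lower with HPPE than with zinc protoporphyrin by -0.39 ± 0.12 (edgeR, adjusted p = 0.0494), while DESeq2 called none of the 5 there. Of all tested genes, edgeR called 12.7% in that comparison. GATA3-AS1 stood at 25.1 ± 8.15 and TBX2-AS1 at 22.8 ± 2.64 CPM in the control, with adjusted p-values of 0.282 and 0.526 for HPPE.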

How the data were processed

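RNA of SH-SY5Y cells was measured in 12 libraries, 3 for each of 4 groups, which were taken from the treatment labels. The authors deposited raw counts of reads per gene, without normalization. The submitters' processing notes name fastp 0.21.1, STAR 2.7.7a, featureCounts and GRCh38. The annotation and the use of strand in counting are not given in the sources used here.

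Of 60710 gene identifiers, 60481 matched a symbol. Total counts ran from 1337028 to 9145399 per library, and the limit of 3 counts covers counting error only. With edgeR 4.0.16 in R 4.3.3, filterByExpr kept 16366 genes with 99.6% of the counts. One fit with a mean for each group used all 12 libraries (TMM, robust glmQLFit; biological coefficient of variation 0.0913). The 6 pairwise comparisons and the 4-group test were two-sided, with Benjamini-Hochberg adjustment over all tested genes and a threshold of 0.05. The fit was tested on simulated data with the same spread for every gene and no axis shared by libraries. That test thus does not show how the fit behaves with the library axis of the real counts. Errors of levels are SD, and errors of log2 fold changes are SE from the quasi-likelihood F statistic. Exon lengths, positions and overlaps come from GENCODE 29.

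The noradrenergic genes and the other lists were chosen with earlier results of these data known. Named from each other list were the called genes (up to 4, largest change first), up to 3 with the highest level, and every antisense partner and relative that passed the filter. Alternatives were other filters, normalizations and groups in the fit, DESeq2 1.42.0, the library axis or the replicate number in the model, removal of a length trend, summing of HPPE 2 and 3, and leaving out each library. Leaving out the 3 shallow libraries together was added after seeing the data. Replicate numbers were not used as pairs in the main fit. Correlations of same-numbered libraries' deviations ran from -0.68 to 0.52, which does not settle whether those libraries belonged together.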

Additional observations from a re-analysis of the deposited data

How the results depend on the processing

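Each comparison was repeated under 24 alternatives (23 for the 4-group test). Of 1008 alternative values of the 7 tested genes, 23 passed the threshold. Of them 58 took the opposite sign, all from values of at most 0.13 in size on the log2 scale. GATA2, GATA3 and DBH passed under 0 of 144 alternatives each. Without the filter on low counts, 1 gene passed for HPPE (TBX2), zinc protoporphyrin, HPPE against zinc protoporphyrin and the 4-group test (HAND2 in these 3). HAND2 also passed with the length trend removed (1 gene for zinc protoporphyrin and 1 in the 4-group test), with DESeq2 (1 gene for zinc protoporphyrin) and with the compared groups only (1 gene for HPPE against zinc protoporphyrin). With the library axis as a covariate the counts were 1 for HPPE, 3 for zinc protoporphyrin, 2 for tin protoporphyrin, 4 for HPPE against zinc protoporphyrin, 2 for zinc against tin protoporphyrin and 3 in the 4-group test; the axis comes from the same counts. Leaving out single libraries gave 0 to 1 gene for HPPE (TBX2, without DMSO control 3 or tin protoporphyrin 2), 0 to 1 for zinc protoporphyrin (HAND2, without tin protoporphyrin 2), 0 to 1 for HPPE against zinc protoporphyrin (HAND2, without either of the same libraries) and 0 to 2 in the 4-group test (HAND2 and TBX2, without tin protoporphyrin 2). With the replicate number as a block, 0 genes passed in any comparison. Whether the numbers pair the libraries is not known. Opposite log2 signs came as follows, and the cause was not tested. PHOX2A was 0.024 for HPPE and 0.12 for tin protoporphyrin without the 3 shallow libraries. GATA2 was -0.00867 (RLE), -0.065 (length trend) and -0.00772 (DESeq2) for HPPE against zinc protoporphyrin, and 0.00528 (length trend) for zinc against tin. GATA3 was 0.0078 (unscaled), 0.000285 (replicate block) and 0.00219 (HPPE libraries summed) for HPPE, -0.0097 (length trend) for HPPE against zinc, and -0.031 (no filter), -0.037 (unscaled), -0.00605 (axis) and -0.038 (shallow libraries out) for zinc against tin. ISL1 was -0.024 (length trend) for HPPE, 0.000597 (length trend) for zinc against tin, and -0.00616 (RLE), -0.00415 (compared groups), -0.00804 (axis), -0.026 (length trend) and -0.00258 (DESeq2) for tin protoporphyrin. DBH was 0.011 (no filter), 0.015 (unscaled) and 0.00506 (shallow libraries out) for HPPE against zinc, and -0.030 (no filter), -0.035 (unscaled), -0.00453 (axis) and -0.023 (shallow libraries out) for zinc against tin. Leaving out single libraries, the log2 values with a change of sign ran as follows. PHOX2A ran from -0.32 to 0.061 for HPPE, from -0.26 to 0.12 for tin protoporphyrin and from -0.23 to 0.13 for HPPE against tin, and HAND2 from -0.12 to 0.0078 for HPPE. GATA2 ran from -0.016 to 0.026 for HPPE against zinc. GATA3 ran from -0.035 to 0.031 for HPPE, from -0.14 to 0.0096 for zinc, from -0.020 to 0.13 for HPPE against zinc and from -0.053 to 0.097 for zinc against tin. ISL1 ran from -0.011 to 0.077 for HPPE, from -0.027 to 0.032 for tin and from -0.0078 to 0.069 for HPPE against tin, and TBX2 from -0.016 to 0.16 for HPPE against tin. DBH ran from -0.045 to 0.012 for HPPE against zinc, from -0.027 to 0.0087 for HPPE against tin and from -0.025 to 0.033 for zinc against tin. The share of all tested genes called ran from 1.67% to 16.3% for HPPE, 0.423% to 25.4% for zinc protoporphyrin, 0.856% to 13.5% for tin protoporphyrin, 1.03% to 34.8% for HPPE against zinc, 0.537% to 15.8% for HPPE against tin, 0.00588% to 14.4% for zinc against tin and 2.45% to 42.5% in the 4-group test, with the highest under the library axis. Of 25 calls among the listed companion genes, 7 passed in all alternatives. TH did not pass the filter on low counts of the main fit. The alternative without that filter kept TH, but no fold of TH is given for any setting.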
